A study of Mus musculus with 8 samples.

Results

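The transcripts described here are those of the proteasome core and regulatory subunits in mouse melanoma tumors. They were taken by name as the genes whose symbol is Psma, Psmb, Psmc or Psmd followed by a number, leaving out the immunoproteasome subunits Psmb8, Psmb9 and Psmb10. This gave 36 of the 28918 genes in the table, of which 34 reached a mean of 1 TPM (a transcript level corrected for transcript length and library total) and entered the test. Tumors were grown under the skin of C57BL/6 mice from B16-mhgp100, a line of the mouse melanoma B16 that carries a gp100 antigen. The cells either over-expressed Colq, the collagen-like tail that anchors acetylcholinesterase at the neuromuscular junction, or carried the vector alone. Every mouse of both groups received anti-PD1, a checkpoint antibody that blocks the inhibitory T cell receptor PD-1, as 4 doses of 200 µg, 2 a week, starting 10 days after inoculation. Tumors were collected 1 day after dosing ended, so neither group was free of antibody. The 3 Colq tumors gave 3 libraries, while the 3 Vector tumors gave 5, because Vector tumors 1 and 2 were each sequenced as 2 portions. The promoter that drives Colq, the number of clones behind each line and the age and sex of the mice are not stated in the labels.

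The proteasome is the protease that degrades proteins tagged with ubiquitin. Its barrel, the 20S core, is built from outer rings of alpha subunits (Psma genes), which gate the entrance, and inner rings of beta subunits (Psmb genes), of which Psmb5, Psmb6 and Psmb7 cut proteins. The 19S regulatory particle caps the barrel: its base holds a ring of ATPases (Psmc genes) that unfold the substrate and subunits that receive ubiquitin chains, and its lid (most Psmd genes) removes ubiquitin. In tumors infiltrated by immune cells, interferon is known to induce Psmb8, Psmb9 and Psmb10, which replace the constitutive catalytic subunits and alter the peptides available for MHC class I.

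Portions of 1 tumor were averaged, and 3 tumors were set against 3 with limma on log2(TPM + 1), with Benjamini-Hochberg adjustment over all 13726 genes tested. A member is called higher or lower where the adjusted p is under 0.05, and fold changes are Colq minus Vector. Since TPM does not retain sequencing depth, that depth is unknown here and precision rests on the spread between tumors. Colq itself was listed at 4.05, 5.03 and 3.86 TPM where it was over-expressed and at no more than 0.24 TPM in any Vector library. The 3 Colq libraries lay close together: over all tested genes, pairs of them differed by a median of 0.106 to 0.111 on the log2 scale, against 0.144 and 0.219 between 2 portions of the same Vector tumor. Pairs of Vector tumors, with portions averaged, differed by 0.133 to 0.194 over all tested genes and by 0.069 to 0.088 over the 34 members. Over these members, Colq pairs differed by 0.035 to 0.054 and portions by 0.058 and 0.144. The labels name 3 Colq tumors, but the p-values may measure only the spread between these libraries, and the counts of the groups of subunits are also given with the Colq libraries averaged into 1 sample. The typical tested gene was lower in Colq tumors, with a median of -0.50 on the log2 scale. Scaling by size factors (median ratios between libraries) brought that median to 0.00, quantile normalization to -0.09, and removal of the trend on length and GC content to -0.08. A member's fold change is therefore best read against the median of the same scale.

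The proteasome transcripts did not move as one block. In Colq tumors 16 of the 34 tested members rose and 12 fell, around a median of 0.11 (log2 fold change; quartiles -0.40 and 0.22), although 10 members fell and 12 rose once the trend on main transcript length was removed and 3 fell and 24 rose after size factors. Averaging the Colq libraries into 1 sample left 6 higher and 9 lower. Of all tested genes, 11.3% were called higher and 59.6% lower on deposited TPM. These shares were 17.4% and 26.7% with the trend on main transcript length removed, and 28.3% and 25.6% after size factors. Those with the Colq libraries as 1 sample also differ and are given below. Counts per subcomplex in what follows are to be read against the share of the same fit. The counts differed between the core and its cap. Of the 14 constitutive 20S core subunits, 11 rose, 0 fell and 3 were not called (median 0.27), whereas of the 17 subunits of the 19S particle 4 rose, 11 fell and 2 were not called (median -0.38). The share of the 19S particle that fell is near that of all tested genes, and its median lies above theirs. These shares also differed with main transcript length. Up to 1000 bases 39.8% of tested genes were called higher and 11.2% lower, and from 1000 to 1500 bases 24.5% and 30.5%. These 2 bands hold 5 and 6 of the 14 core subunits. The 3 Colq tumors lay above all 3 Vector tumors for 18 members and below them for 12, where 12.5% and 62.2% of all tested genes did so. For the core these counts were 12 above and 0 below, and for the 19S particle 4 above and 11 below.

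**Figure D1:**
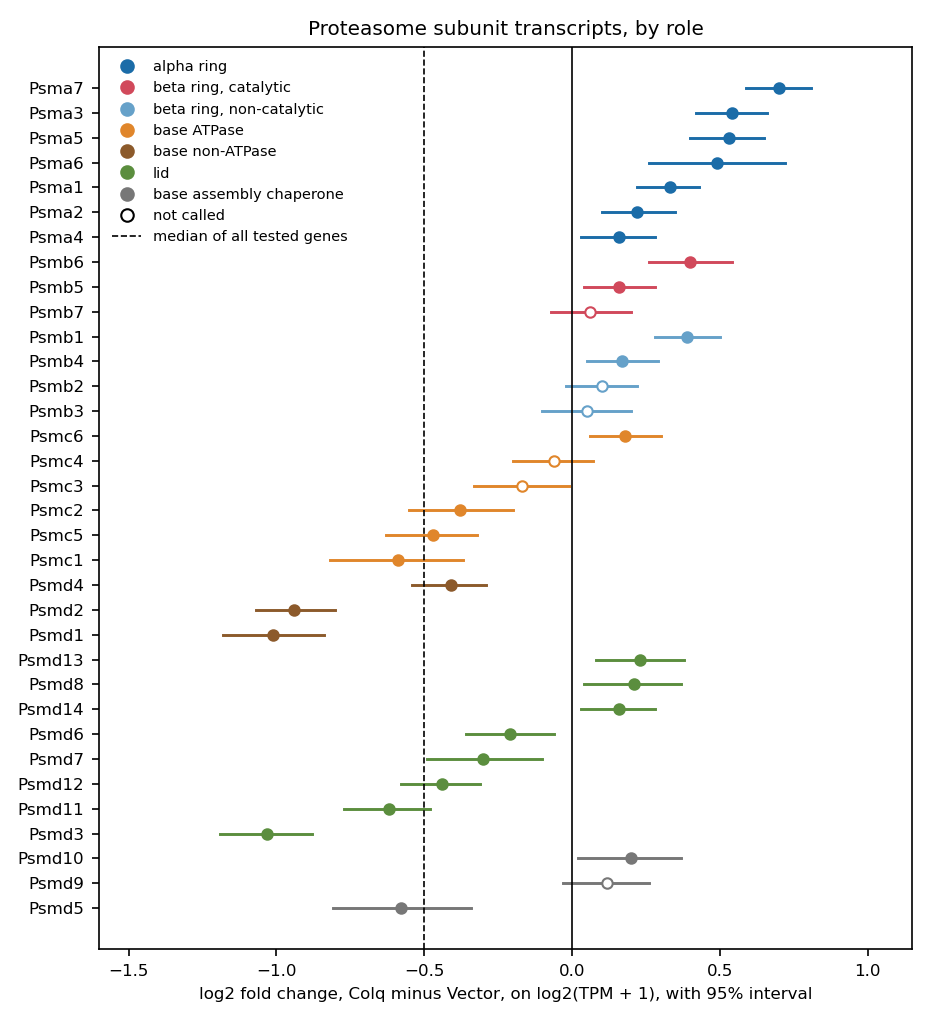
Log2 fold change (Colq minus Vector, log2(TPM + 1)) of each of the 34 tested members with its 95% interval from limma, coloured by role, open where not called; n = 3 tumors per group. The alpha ring lies between 0.16 and 0.70, above both 0 and the dashed median of all tested genes at -0.50, while Psmd1, Psmd2 and Psmd3 lie near -1. With main transcript length removed, Psma4, Psmb7, Psmb2 and Psmb3 moved below 0, and size factors placed 8 of the subunits left of 0 here to its right.

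In the alpha ring all 7 subunits rose, with a median log2 fold change of 0.49 and a mean per subunit of 370 ± 7.06 TPM in Colq tumors against 263 ± 9.18 TPM in Vector tumors (SD, n = 3 each). With main transcript length removed, 6 of the 7 rose, and Psma4 stood at -0.01. With the Colq libraries as 1 sample 4 of the 7 rose, and Psma6, Psma2 and Psma4 lost their calls (limma, adjusted p = 0.08, 0.11 and 0.19). Psma7 (chromosome 2, 180036374 to 180042433, minus strand, in GRCm38) showed the largest rise of the 34 tested members. Its libraries held 649.1, 672.8 and 676.2 TPM in Colq and 402.9, 438.8, 428.7, 372.9 and 410.0 TPM in Vector, listed here and below as portions 1 and 2 of Vector tumor 1, portions 1 and 2 of Vector tumor 2, and Vector tumor 3. The lowest Colq library was well above the highest Vector library, and the log2 fold change was 0.70 (SE 0.05; limma, adjusted p = 2.5e-05). Psma3 (chromosome 12, 70974621 to 70996347, plus strand) came next, at 634.5, 584.4 and 618.6 TPM against 419.3, 436.6, 442.1, 392.5 and 420.4 TPM. The groups were again separate, by 0.54 on the log2 scale (SE 0.05; limma, adjusted p = 7.6e-05).

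Psma5 held 339.7, 324.1 and 344.8 TPM in Colq libraries against 233.0, 247.6, 234.7, 233.0 and 225.7 TPM in Vector libraries (log2 fold change 0.53, SE 0.05; limma, adjusted p = 9.2e-05). Psma6 held 352.6, 347.2 and 362.7 TPM against 273.3, 314.7, 263.1, 223.0 and 223.4 TPM. Psma6 was the alpha subunit with the widest Vector spread, 253 ± 36.5 TPM (SD, n = 3), yet no Vector library reached a Colq library, and its log2 fold change was 0.49 (SE 0.10; limma, adjusted p = 0.0028). Psma1 stood at 304.7, 298.3 and 301.8 TPM against 233.8, 254.1, 242.6, 230.3 and 240.5 TPM, a log2 fold change of 0.33 (SE 0.05; limma, adjusted p = 0.00046). Psma2, the least abundant alpha subunit, stood at 75.13, 75.02 and 76.92 TPM against 65.11, 65.57, 62.62, 62.90 and 66.10 TPM. Its groups were separate but only 0.22 apart (SE 0.05; limma, adjusted p = 0.0073). Psma4 moved least, from 230.6, 220.3, 235.6, 208.0 and 213.1 TPM in Vector libraries to 249.5, 235.1 and 251.9 TPM in Colq libraries. One Vector portion overlapped the Colq range, and the log2 fold change of 0.16 (SE 0.05; limma, adjusted p = 0.03) lost its call without Colq tumor 1, Colq tumor 3 or Vector tumor 2 (adjusted p 0.096, 0.10 and 0.054).

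Of the 3 catalytic beta subunits, 2 rose, or 1 with the Colq libraries as 1 sample. Psmb6, which cuts after acidic residues, held 406.1, 436.1 and 414.9 TPM in Colq libraries and 339.1, 337.6, 320.6, 284.7 and 311.3 TPM in Vector libraries. All Colq libraries were higher, by a log2 fold change of 0.40 (SE 0.06; limma, adjusted p = 0.0007). Psmb5, the chymotrypsin-like subunit and the main target of bortezomib, stood at 289.6, 278.1 and 277.8 TPM against 251.8, 254.8, 257.1, 231.8 and 259.4 TPM. The groups did not overlap, but the difference was small, 0.16 (SE 0.05; limma, adjusted p = 0.022). That call was lost without any single Colq tumor or without Vector tumor 2 (adjusted p 0.051 to 0.085), and removal of the exonic length trend left -0.03. Psmb7, the trypsin-like subunit, was at 367.6, 362.3 and 359.4 TPM against 359.6, 380.0, 385.6, 310.9 and 327.1 TPM, and here 2 Vector libraries lay above every Colq library. Its log2 fold change was 0.06, with a 95% interval from -0.07 to 0.20 (limma, adjusted p = 0.35).

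Among the 4 non-catalytic beta subunits, Psmb1 and Psmb4 rose and Psmb2 and Psmb3 were not called, and with the Colq libraries as 1 sample 1 of the 4 rose. Psmb1 held 195.9, 194.5 and 193.7 TPM against 147.4, 149.2, 153.9, 147.6 and 145.9 TPM, with narrow spread in both groups (log2 fold change 0.39, SE 0.05; limma, adjusted p = 0.00022). Psmb4, the most abundant core subunit in Vector tumors, held 527.5, 546.2 and 523.9 TPM against 483.9, 474.7, 457.4, 453.5 and 485.8 TPM. The separation of Psmb4 was clear but small, 0.17 (SE 0.05; limma, adjusted p = 0.017), and its call was lost without Colq tumor 2 (adjusted p = 0.066). Psmb3 was at 350.9, 338.5 and 345.6 TPM against 368.3, 355.8, 332.0, 323.1 and 311.4 TPM, with Vector libraries on both sides of the Colq range. Its 95% interval ran from -0.10 to 0.20 and that of Psmb2 from -0.02 to 0.22 (limma, adjusted p 0.50 and 0.12). Psmb2 reached the threshold without Vector tumor 1 (0.13; limma, adjusted p = 0.049). Both were called lower with main transcript length removed (-0.18 and -0.14) and higher after size factors (0.62 and 0.67).

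The tissue-restricted core subunits were near 0. Psma8, the alpha subunit of the testis proteasome, stood at 0.18, 0.16 and 0.13 TPM in Colq libraries and at 0.22 TPM in portion 1 of Vector tumor 2, and was listed at 0 in the other Vector libraries. Psmb11, the catalytic subunit of the thymus, was at most 0.04 TPM in any library. Neither entered the test.

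In the ATPase ring of the 19S base, Psmc1, Psmc2 and Psmc5 fell, Psmc6 rose, and Psmc3 and Psmc4 were not called. The shares of the ring that fell and rose were near the 59.6% and 11.3% of all tested genes. After size factors 3 of the 6 were called higher and 0 lower, where 28.3% and 25.6% of all tested genes were. With the Colq libraries as 1 sample none was called higher and 2 were called lower. Psmc1 (chromosome 12, 100110154 to 100123405, plus strand) fell furthest, with 176.4, 198.3 and 186.4 TPM in Colq libraries against 311.0, 339.5, 282.5, 251.1 and 260.4 TPM in Vector libraries. Every Vector library was above every Colq library, and the log2 fold change was -0.59 (SE 0.09; limma, adjusted p = 0.00091). After size factors Psmc1 stood at -0.02 and was not called. Psmc6 went the other way, at 187.7, 178.9 and 180.2 TPM against 152.9, 165.4, 156.3, 156.2 and 166.8 TPM. Its rise of 0.18 (SE 0.05; limma, adjusted p = 0.016) was lost without Colq tumor 1 (adjusted p = 0.064). Psmc5 was at 191 ± 2.41 against 266 ± 20.3 TPM and Psmc2 at 129 ± 2.14 against 168 ± 16.3 TPM (SD, n = 3 tumors each), log2 fold changes of -0.47 and -0.38. After size factors Psmc5 (0.10) and Psmc2 (0.20) were not called. Nor was Psmc2 called with quantile normalization (-0.09), or with exonic length (-0.01) or main transcript length (-0.20) removed. Psmc4 had a 95% interval from -0.20 to 0.07. Psmc3 stood at -0.17 (limma, adjusted p = 0.061) and was called lower without Vector tumor 2 (-0.22; adjusted p = 0.031).

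The non-ATPase subunits of the base fell together, 3 of 3, with a median log2 fold change of -0.94, and 2 of the 3 still fell after size factors. All 3 fell with the Colq libraries as 1 sample. Psmd1 and Psmd2 are the large scaffold subunits of the base, to which ubiquitin-like domains of shuttle proteins dock, and Psmd4 is a ubiquitin receptor. Psmd1 (chromosome 1, 86064387 to 86139151, plus strand) held 59.45, 60.46 and 60.02 TPM in Colq libraries against 116.7, 109.8, 117.0, 121.2 and 134.1 TPM in Vector libraries. No Colq library came near the Vector range, and the log2 fold change was -1.01 (SE 0.07; limma, adjusted p = 2.8e-05). Psmd2 (chromosome 16, 20651652 to 20663414, plus strand) was at 115 ± 4.68 TPM against 221 ± 7.59 TPM (SD, n = 3 tumors each), a log2 fold change of -0.94 (SE 0.06; limma, adjusted p = 1.9e-05). Psmd4 held 192.3, 194.6 and 184.7 TPM against 265.6, 265.6, 264.9, 234.8 and 246.9 TPM, a smaller fall of 0.41 on the log2 scale (SE 0.05; limma, adjusted p = 0.00033), which stood at 0.16 after size factors.

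In the lid 5 of 8 subunits fell and 3 rose, although 1 fell and 5 rose after size factors, and 3 fell and 0 rose with the Colq libraries as 1 sample. Over all tested genes 59.6% fell and 11.3% rose, and after size factors 25.6% fell and 28.3% rose. On deposited TPM the share of the lid that fell was thus near that of all tested genes. Psmd3 (chromosome 11, 98682554 to 98695979, plus strand), a scaffold subunit of the lid, fell furthest of all 34 tested members. Its libraries held 78.24, 81.49 and 76.66 TPM in Colq against 174.8, 173.3, 154.4, 151.8 and 160.3 TPM in Vector. The ranges were far apart, and the log2 fold change was -1.03 (SE 0.06; limma, adjusted p = 2.1e-05). Psmd11 (-0.62), Psmd12 (-0.44), Psmd7 (-0.30) and Psmd6 (-0.21) also fell on the log2 scale. After size factors they stood at -0.06, 0.12, 0.27 and 0.36, with Psmd7 and Psmd6 called higher. With the exonic length trend removed, Psmd12 (-0.26) was still called lower, but Psmd11 (-0.18), Psmd7 (-0.17) and Psmd6 (-0.01) were not called. On deposited TPM the calls for Psmd7 and Psmd6 also rested on single tumors. Psmd7 was not called without Vector tumor 2 (limma, adjusted p = 0.051), nor Psmd6 without Colq tumor 1 (limma, adjusted p = 0.066).

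The lid subunits that rose were Psmd13, Psmd8 and Psmd14. Psmd13 held 130.0, 128.9 and 127.6 TPM in Colq libraries against 97.14, 117.3, 99.63, 110.0 and 119.1 TPM in Vector libraries, with no overlap and a log2 fold change of 0.23 (SE 0.06; limma, adjusted p = 0.015). Psmd8, the most abundant 19S subunit in both groups, was at 615.5, 645.5 and 617.7 TPM against 548.1, 641.9, 539.6, 533.1 and 501.9 TPM, and portion 2 of Vector tumor 1 lay inside the Colq range (0.21, SE 0.07; limma, adjusted p = 0.029). Psmd14, the metalloprotease that cuts ubiquitin chains off the substrate, was at 185.2, 177.6 and 176.0 TPM against 167.0, 165.9, 166.3, 154.1 and 156.7 TPM. Its groups were separate by a small margin (0.16, SE 0.05; limma, adjusted p = 0.029). Without any single Colq tumor or without Vector tumor 2, Psmd8 (adjusted p 0.066 to 0.097) and Psmd14 (adjusted p 0.054 to 0.10) lost their calls. The count of 19S subunits that rose, 4 in the full set, accordingly dropped to 1 without Colq tumor 1 and to 2 without Colq tumor 2, Colq tumor 3 or Vector tumor 2.

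The other 3 members, Psmd5, Psmd9 and Psmd10, are chaperones that hold the ATPases during assembly of the base and are absent from the finished particle. With the Colq libraries as 1 sample 1 of them fell and 0 rose. They were the least abundant of the tested members, at means of 18.1 to 35.0 TPM in Colq tumors. Psmd5 fell from 26.24, 22.46, 27.99, 31.35 and 28.92 TPM in Vector libraries to 19.73, 17.25 and 17.43 TPM in Colq libraries, with no overlap (log2 fold change -0.58, SE 0.10; limma, adjusted p = 0.0014). The log2 fold change of Psmd5 was -0.03 after size factors and -0.00 with quantile normalization. With the trend on main transcript length and GC content removed it was 0.05, and Psmd5 was called in none of these 3 fits. Its annotated main transcript of 4397 bases is the longest among the tested members, and the cause of its fall was not tested. Psmd10 was at 34.76, 37.35 and 32.76 TPM against 31.16, 32.42, 30.72, 27.54 and 30.06 TPM, a call at the edge of the threshold (0.20, SE 0.08; limma, adjusted p = 0.046). It was lost without Colq tumor 1, Colq tumor 2, Vector tumor 2 or Vector tumor 3 (adjusted p 0.072 to 0.15). Psmd9 was not called (0.12, 95% interval from -0.03 to 0.26; limma, adjusted p = 0.14), and was called higher under size factors (0.67) and with main transcript length removed (0.60).

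The balance between the subcomplexes differed between every Colq and every Vector library. Summed over subunits, 20S core transcripts came to 4953.8 ± 25.8 TPM in Colq against 3928.9 ± 139 TPM in Vector tumors, a ratio of 1.26 (SD, n = 3 each). The sum for the 19S particle was 2914.7 ± 47.8 TPM against 3454.4 ± 149 TPM, a ratio of 0.844. Within a library, the mean TPM of a 19S subunit over that of a 20S subunit was 0.480, 0.497 and 0.477 in Colq and 0.722, 0.735, 0.696, 0.728 and 0.732 in Vector. The Colq and Vector values did not overlap. Scaling a library by a single factor leaves this ratio as it is, but removing a trend on transcript length can change it. No ratio was computed with that trend removed. The ATPase ring over the alpha ring, the rings that face each other in the assembled complex, gave 0.537 ± 0.0198 against 0.905 ± 0.0359 (SD, n = 3 tumors each). Mean levels per subunit were higher in Colq tumors for the alpha ring (370 against 263 TPM) and the beta ring (337 against 298 TPM). They were lower for the ATPases (199 against 238 TPM) and the other base subunits (122 against 199 TPM), while those of the lid, 169 ± 2.21 against 178 ± 9.80 TPM, differed by less than the spread between Vector tumors.

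**Figure D2:**
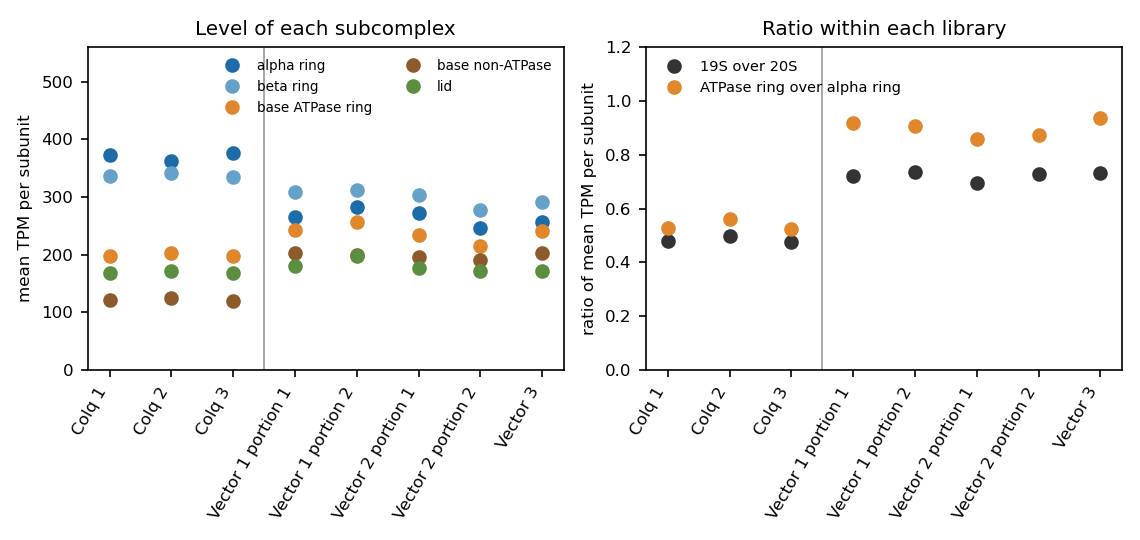
Left, mean TPM per subunit of each subcomplex in each of the 8 libraries; right, the ratio of the 19S mean to the 20S mean and of the ATPase ring to the alpha ring. The vertical line parts the 3 Colq from the 5 Vector libraries; the 19S over 20S ratio is between 0.477 and 0.497 on its left and between 0.696 and 0.735 on its right.

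Transcript length differed between the subcomplexes and went with fold change over the whole table. Across all 13211 tested genes with a length, the correlation of log2 length of the principal transcript with log2 fold change was -0.55, a description across genes, which are not independent. All tested genes had a median log2 fold change of 0.29 up to 1000 bases, -0.07 from 1000 to 1500, -0.28 from 1500 to 2000, -0.49 from 2000 to 3000, -0.68 from 3000 to 5000 and -0.92 beyond. The principal transcripts of core subunits had a median of 1162 bases and those of 19S subunits 1636 bases, in the GRCm38 annotation. Core subunits stood at medians of 0.16 (n = 5), 0.25 (n = 6), 0.39 (n = 1) and 0.38 (n = 2) in the first 4 bands. Thus the core lay below the median of all genes in the shortest band and above it in the others. In these 4 bands 3 of 5, 5 of 6, 1 of 1 and 2 of 2 core subunits rose. Of all tested genes in the same bands, 39.8%, 24.5%, 12.7% and 7.8% rose. The 19S subunits stood at -0.31 (n = 4), -0.23 (n = 8), -0.78 (n = 4) and -1.01 (n = 1) from the second band on, above the median of all genes from 1500 to 2000 bases and below it in the other bands. In the same order 3, 4, 3 and 1 of them fell and 0, 3, 1 and 0 rose. Of all tested genes in those bands, 30.5%, 47.8%, 64.0% and 76.3% fell. Among core subunits alone, longer transcripts did not have lower fold changes (r = 0.21, n = 14), while among 19S subunits they tended to (r = -0.51, n = 17). The annotated main transcripts of Psma2 and Psma3, 2911 and 2846 bases, exceed those of the other alpha subunits, so the band they fall in depends on that choice. RNA quality was not tested.

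**Figure D3:**
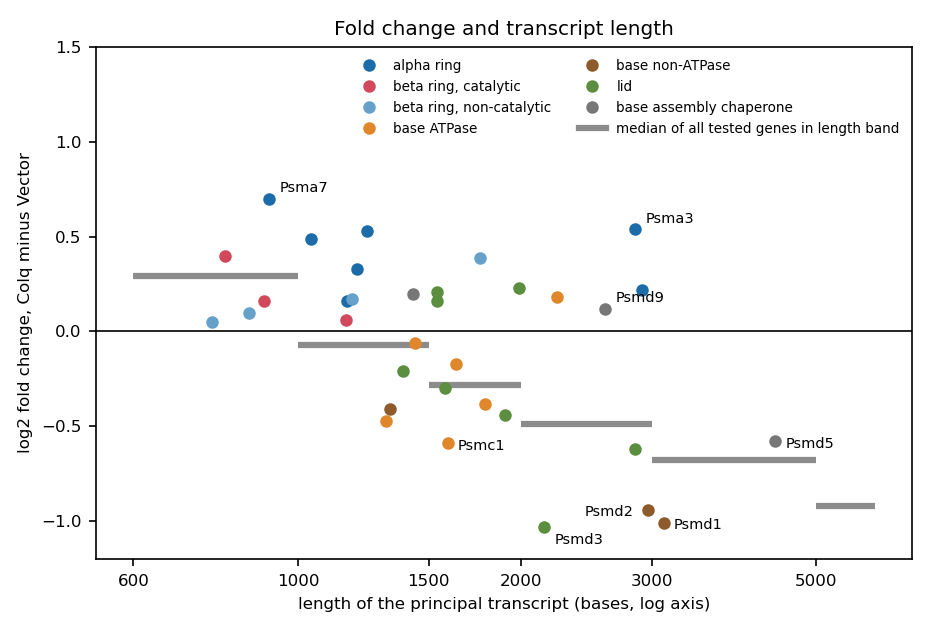
Log2 fold change (Colq minus Vector) of each tested member against the length of its principal transcript in bases (log axis), coloured by role; grey bars are the median of all tested genes in each length band. The bars run from 0.29 for genes up to 1000 bases to -0.92 beyond 5000 bases, with Psma3 and Psma2 above and Psmd3, Psmd2 and Psmd1 below the bars at their lengths.

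When the dependence on exonic length and on GC content was removed from each library, 11 of 14 core subunits rose and 0 fell, and of 17 in the 19S particle 4 rose and 6 fell. Of all genes in that fit, 19.6% were called higher and 27.6% lower. With main transcript length in place of exonic length, an alternative chosen after seeing the data, 8 core subunits rose and 2 fell, and 3 of the 19S rose and 8 fell, against 17.4% and 26.7% of all genes. Size factors called all 14 core subunits higher and gave 8 higher and 3 lower in the 19S particle, where 28.3% and 25.6% of all genes were called. Quantile normalization gave 12 and 0 for the core and 4 and 7 for the 19S particle, against 23.2% and 30.6% of all genes. With the Colq libraries counted as 1 sample, 6 core subunits rose and 0 fell, and 0 of the 19S rose and 8 fell, against 5.74% and 41.6% of all genes. Psmd1, Psmd2 and Psmd3 were called lower in each of these fits. The median of the core stood above that of the 19S particle in each of them, at 0.20 against -0.20 with main transcript length removed and at 0.84 against 0.20 after size factors.

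The authors' deposited table, a DESeq2 comparison of the same study, is centred near 0, with a median log2 fold change of 0.03 over the 19153 genes that have an adjusted p there, of which 20.1% were higher and 20.4% lower at an adjusted p under 0.05. Of the 35 members with an adjusted p in the authors' deposited table, 23 were higher and 3 lower. All 14 core subunits were higher there (median 0.82), and of the 17 in the 19S particle 7 were higher and 3 lower (median 0.16). The authors' deposited table gave Psma7 a log2 fold change of 1.25 and the lower members Psmd3, Psmd1 and Psmd2 values of -0.50, -0.48 and -0.40. It lists Psmc1, Psmd11 and Psmd5 at -0.06, -0.08 and -0.05, none called. That table rests on libraries of the same study and is not independent of the fits above.

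Marker transcripts of several cell types differed between the groups. Of 8 melanoma markers 7 fell, where 59.6% of all tested genes did, while 5 fell and 2 rose after size factors and 5 fell with the Colq libraries as 1 sample. Their summed level was 12016.3 to 12410.6 TPM in Colq libraries against 19928.9 to 24399.8 TPM in Vector libraries. All 8 skeletal muscle markers rose, where 11.3% of all tested genes did. Their sum was 31.8 to 158 TPM in Vector libraries and 842 to 857 TPM in Colq libraries. Counts of the marker lists that follow stand beside the same 11.3% higher and 59.6% lower. Leukocyte markers summed to 960 to 970 TPM in Colq libraries and 231 to 439 TPM in Vector libraries, with 3 of 7 tested markers higher and 0 lower. Lyz2, the lysozyme of macrophages and neutrophils, made up most of that sum (869 ± 4.37 against 188 ± 32.5 TPM; SD, n = 3 tumors each), and without it the sums overlapped, at 89.9 to 101 TPM in Colq libraries and 63.2 to 142 TPM in Vector libraries. Of 6 fibroblast markers 3 were higher (Dcn, Lum and Dpt) and 2 lower (Col1a1 and Col1a2), with sums of 228 to 246 TPM against 120 to 220 TPM. Keratinocyte markers summed to 36.5 to 42.3 TPM against 0.380 to 197 TPM, and endothelial markers to 43.5 to 44.9 TPM against 75.3 to 132 TPM. The keratinocyte sum of 197 TPM was in portion 1 of Vector tumor 1, and the other Vector libraries held at most 24.7 TPM. Of 6 keratinocyte markers 4 were called higher and 0 lower. Of 4 tested endothelial markers 0 were called higher and 3 lower. Zero values occurred only in Vector tumor 2, for the muscle marker Pvalb and 5 of 6 keratinocyte markers (Krt5, Krt14, Krt10, Krt15 and Lor). Proteasome subunits are made in all of these cell types. In bulk tumors, fewer cells of a type and less RNA per cell cannot be told apart, and the part of these markers' cell types in the subunit differences was not tested.

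Of the immunoproteasome subunits that replace the constitutive catalytic ones, Psmb9 and Psmb10 rose and Psmb8 was not called. With the Colq libraries as 1 sample 0 of the 3 rose (limma, adjusted p = 0.12 for Psmb9 and 0.18 for Psmb10). Psmb9 held 263.9, 266.9 and 260.6 TPM in Colq libraries against 207.6, 186.0, 222.5, 236.0 and 175.6 TPM in Vector libraries (log2 fold change 0.40, SE 0.09; limma, adjusted p = 0.006). Psmb10 held 318.9, 310.8 and 303.6 TPM against 272.9, 249.7, 264.3, 270.2 and 203.9 TPM (0.36, SE 0.10; limma, adjusted p = 0.016). Both groups of libraries were separate for these genes, though Psmb10 lost its call without Colq tumor 1 (adjusted p = 0.055). Psmb8 was at 404.2, 384.9 and 380.6 TPM against 387.1, 311.7, 403.9, 463.7 and 310.1 TPM, with overlap and a 95% interval from -0.16 to 0.38 (limma, adjusted p = 0.40), and was called higher without Vector tumor 2 (0.25; adjusted p = 0.02). Psmb8 was also called higher after size factors (0.69) and with exonic length (0.52) or main transcript length (0.35) removed. Set against the subunit each replaces, Psmb8 over Psmb5 was 1.38 ± 0.0129 in Colq and 1.45 ± 0.296 in Vector tumors, and Psmb9 over Psmb6 was 0.630 ± 0.0190 and 0.634 ± 0.107 (SD, n = 3 tumors each). Both differences were smaller than the spread between Vector tumors. Psmb10 over Psmb7 was 0.857 ± 0.0115 against 0.699 ± 0.0722. Colq libraries ran from 0.845 to 0.867 and Vector libraries from 0.623 to 0.869, with portion 2 of Vector tumor 2 above all Colq libraries.

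**Figure D4:**
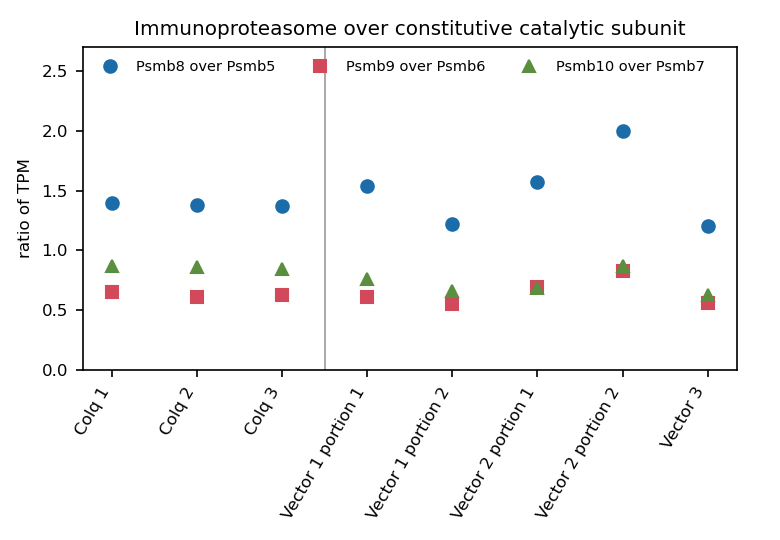
Ratio of the TPM of each immunoproteasome subunit to that of the constitutive catalytic subunit it replaces, in each of the 8 libraries; the vertical line parts Colq from Vector. All 3 ratios are highest in portion 2 of Vector tumor 2, where Psmb8 over Psmb5 reached 2.00. The Colq libraries lie inside the range of the Vector libraries for all 3 ratios. For Psmb10 over Psmb7, that portion (0.869) is the only Vector library above them.

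Of 5 genes for alternative caps of the core and its inhibitor, 1 rose, 3 fell and 1 was not called, a share of falls near the 59.6% of all tested genes, and 2 rose and 2 fell after size factors. Psme1 and Psme2 together form the interferon-inducible activator PA28. Psme1 was at 279.7, 308.4 and 284.5 TPM against 309.6, 266.2, 341.9, 314.8 and 263.1 TPM, with a 95% interval from -0.21 to 0.20 (limma, adjusted p = 0.96). Its partner Psme2 was at 439.6, 611.3 and 459.5 TPM against 450.6, 233.5, 296.5, 446.2 and 272.5 TPM, with 2 Vector portions above the lowest Colq library and a log2 fold change of 0.65 (SE 0.15; limma, adjusted p = 0.0058). Psme2 has a near-identical copy in the mouse genome, so the split of reads between copies makes its level uncertain. Psme4, the nuclear activator PA200, fell from 52.8 ± 1.86 TPM in Vector to 22.0 ± 0.940 TPM in Colq tumors (SD, n = 3 each), a log2 fold change of -1.22 (SE 0.07; limma, adjusted p = 1.5e-05). Psme3, the nuclear activator PA28 gamma, and the inhibitor Psmf1 also fell, by 0.90 and 0.64 on the log2 scale, but Psmf1 stood at -0.08 after size factors. Relative to Psme1, Psme4 was 0.0680 to 0.0802 in Colq libraries and 0.131 to 0.207 in Vector libraries.

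Of the 5 chaperones that assemble the 20S core, 2 rose, 2 fell and 1 was not called, although 4 rose and 0 fell after size factors and 2 rose and 1 fell with the Colq libraries as 1 sample. Pomp, which matures the beta ring, was at 296.0, 277.8 and 287.0 TPM against 188.3, 205.4, 186.9, 228.4 and 215.3 TPM. Its groups were separate, with a log2 fold change of 0.48 (SE 0.06; limma, adjusted p = 0.0002). Psmg4 rose by 0.87 (SE 0.10; limma, adjusted p = 0.00015). Psmg2 and Psmg1, partners in the chaperone that gathers the alpha ring, fell by 0.67 and 0.27 on the log2 scale. Of all tested genes 59.6% fell and 11.3% rose on that scale. Psmg2 was not called after size factors (-0.10) or with quantile normalization (-0.17). It was called lower with exonic length (-0.71) or main transcript length (-0.87) removed. Psmg1 stood at 0.29 after size factors and lost its call without Colq tumor 3 (limma, adjusted p = 0.051).

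Of 15 tested genes for other regulatory particle and proteasome-bound proteins, 13 fell, 1 rose (Sem1, a small lid subunit, by 0.29, chosen for mention after its value was seen) and 1 was not called, although 8 fell and 2 rose after size factors and 12 fell and 0 rose with the Colq libraries as 1 sample. The shuttle receptors Rad23b and Ubqln1, which carry ubiquitinated proteins to the base, fell by 1.08 and 1.09 on the log2 scale (SE 0.06 and 0.07; limma, adjusted p = 1.7e-05 and 2.3e-05). Of 9 ubiquitin and E1 genes 6 fell and 1 rose, and after size factors 5 fell and 3 rose. Both lists stand beside 59.6% of all tested genes that fell and 11.3% that rose, or 25.6% and 28.3% after size factors. On deposited TPM the shares of ubiquitin and E1 genes that fell and rose were near those of all tested genes. The ATPase Vcp, which extracts ubiquitinated proteins, was at 116 ± 2.03 TPM against 309 ± 18.8 TPM, and Uba1, the main enzyme that activates ubiquitin, at 77.0 ± 6.48 TPM against 216 ± 9.69 TPM (SD, n = 3 tumors each). These are log2 fold changes of -1.41 and -1.48 (limma, adjusted p = 9.7e-06 and 1.3e-05). The gene that rose was Rps27a, which encodes ubiquitin fused to a ribosomal protein (0.81; limma, adjusted p = 1.6e-05), named after its value was seen.

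Nfe2l1 (NRF1), the factor known to raise proteasome subunit genes together when the proteasome is inhibited, was at 31.32, 34.83 and 32.67 TPM in Colq libraries against 63.71, 58.19, 58.31, 79.56 and 63.61 TPM in Vector libraries. Every Colq library was lower, by 0.94 on the log2 scale (SE 0.07; limma, adjusted p = 3.4e-05). Nfe2l2 (NRF2), its relative in the oxidative stress response, was at 60.3 ± 1.5 TPM against 111 ± 6.91 TPM (SD, n = 3 tumors each; log2 fold change -0.86, SE 0.06; limma, adjusted p = 3.2e-05). Of the 7 tested genes in the list of proteasome gene regulators, 6 fell and 0 rose, where 59.6% of all tested genes fell and 11.3% rose, and after size factors 3 fell and 0 rose. With main transcript length removed 1 of the 7 fell, namely Nfe2l2 at -0.51, and Nfe2l1 stood at -0.16 (limma, adjusted p = 0.074).

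NRF1 and NRF2 bind, with small MAF partners, antioxidant response elements, whose core can be written TGACNNNGC. RefSeq promoter windows (GRCm38.p6, from 250 bases before to 50 after the start) were at hand for 29 of the 36 members, as 31 windows. Searched on both strands, TGACNNNGC was in 5 of these windows, 16.1%, against 12.4% of all 32851 windows. The 5 members were Psmb5 and Psmb6 in the core and Psmc6, Psmd12 and Psmd9 outside it. The windows of 3 are printed because they hold the same core letters in front of subunits whose calls differed on deposited TPM: Psmb5 and Psmb6 rose and Psmd12 fell. That contrast depends on the scale, since Psmd12 stood at 0.12 after size factors and Psmb5 at -0.03 with exonic length removed. The windows are chr14:54617946-54618245 (minus strand), chr11:70525107-70525406 (plus strand) and chr11:107479278-107479577 (plus strand), each written 5′ to 3′ along the gene with the match in capitals.
Psmb5: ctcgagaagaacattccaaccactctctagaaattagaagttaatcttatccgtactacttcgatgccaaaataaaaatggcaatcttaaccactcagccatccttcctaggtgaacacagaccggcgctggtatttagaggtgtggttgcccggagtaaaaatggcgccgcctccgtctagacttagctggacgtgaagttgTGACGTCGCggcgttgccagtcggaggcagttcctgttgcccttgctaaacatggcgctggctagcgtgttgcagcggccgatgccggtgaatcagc
Psmb6: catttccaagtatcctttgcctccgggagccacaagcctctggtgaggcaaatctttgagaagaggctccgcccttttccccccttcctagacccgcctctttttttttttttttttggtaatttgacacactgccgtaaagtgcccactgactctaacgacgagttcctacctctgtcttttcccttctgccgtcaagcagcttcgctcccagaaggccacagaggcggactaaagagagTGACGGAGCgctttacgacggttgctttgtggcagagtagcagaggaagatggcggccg
Psmd12: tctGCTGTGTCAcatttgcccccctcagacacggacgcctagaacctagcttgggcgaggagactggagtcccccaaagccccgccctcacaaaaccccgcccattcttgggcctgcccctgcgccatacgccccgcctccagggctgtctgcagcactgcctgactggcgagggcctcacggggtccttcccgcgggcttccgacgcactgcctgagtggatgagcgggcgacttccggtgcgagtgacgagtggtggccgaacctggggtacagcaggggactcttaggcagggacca
The matches begin at positions -47, -9 and -247 from the start, the last on the opposite strand, so that its capitals read as the reverse complement. Of the 5 members with a match, Psmb5, Psmb6 and Psmc6 rose, Psmd12 fell and Psmd9 was not called. The CCAAT box, bound by NF-Y, was in 38.7% of member windows and 37.4% of all windows. A match of letters is not a bound site, and a window without one says only that these letters are not in it.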

How the data were processed

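Polyadenylated RNA of bulk tumors was extracted with TRIzol and made into libraries that do not mark strand, per the labels' protocols; reads of overlapping antisense genes cannot be told apart, nor can those of near-identical copies be assigned with certainty. The deposited values are log2(TPM + 1), with TPM from RSEM on mm39, per the submitters' processing notes; no aligner, version or annotation release is given in the sources used here. The authors' deposited comparison comes from DESeq2, per the same notes, and gives log2 fold changes with adjusted p-values; which libraries entered it is not stated. Receptor repertoire measures were not used.

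Groups came from the sample titles. Portions were averaged on the log2 scale, and genes with a mean of at least 1 TPM over 6 tumors were tested. The test was limma 3.58.1 in R 4.3.3 (a linear fit with eBayes, trend on, pseudocount 1, Benjamini-Hochberg adjustment). In simulated data, 200 of 13726 genes were changed by 1 or 2 on the log2 scale, and 82% and 97% of these were called. Of the unchanged genes 10 were called. The simulated tumors were drawn independently and few genes were changed. In the deposited data 11.3% of genes were called higher and 59.6% lower, so recovery there may differ. Smaller changes, as most members showed, were not simulated. Ratios and sums used TPM, in Python 3.11.15. Lengths and gene positions came from a GENCODE annotation of GRCm38, not the authors' build, which covered 96.2% of tested genes. The trends were removed by loess (span 0.5).

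Members, lists and tests were chosen with earlier results of these data known. All members are accounted for; values per library are given for the catalytic, tissue-restricted and rising members and the extremes of each role, and pathway genes were named by a set list plus the 2 called genes of smallest p per list. Alternatives were pseudocounts of 0.1 and 0.5, no filter, a mean of at least 5 TPM, size factors, quantile normalization, removal of the exonic length and GC trend, leaving out each tumor, robust eBayes, a replicate block and other uses of portions; main transcript length and the Colq libraries as 1 sample were added after seeing the data.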

Additional observations from a re-analysis of the deposited data

Results flagged for a closer look

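Within the 5 Vector libraries, 1 library stood apart from the others for 2 of the 36 members examined, by Dixon's test at its 95% critical value; chance flags about 1 in 20 groups. Psmb5 was lowest in portion 2 of Vector tumor 2, at 231.8 TPM against 251.8 to 259.4 TPM in the other Vector libraries. Psma8 stood at 0.22 TPM in portion 1 of Vector tumor 2 and was listed at 0 in the others. The 5 libraries come from 3 tumors, so portions of a tumor are not independent of each other.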

How the results depend on the processing

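Pseudocounts, a higher filter, averaging portions as TPM and robust eBayes changed no call among the 34 tested members. Of the count of 16 members higher, 6 remained as a count with the Colq libraries as 1 sample, and 10 to 17 with each tumor left out. Of 12 lower, the count was 3 with size factors, 7 with quantile normalization and 6 with the exonic length trend removed. The member median was 0.67, 0.18, 0.16 and, with main transcript length removed, 0.06. Core subunits higher numbered 6 with the Colq libraries as 1 sample, and 2 were lower with main transcript length removed. In the 19S particle, 8 were higher with size factors, 0 with the Colq libraries as 1 sample and 1 to 4 with each tumor left out; 3, 7 and 6 were lower with size factors, quantile normalization and exonic length removed.

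Log2 fold changes of members and named pathway genes that changed sign were, with size factors, Psmc2 (0.20), Psmc3 (0.40), Psmc4 (0.51), Psmc5 (0.10), Psmd12 (0.12), Psmd4 (0.16), Psmd6 (0.36), Psmd7 (0.27), Psme1 (0.57) and Psmg1 (0.29). With quantile normalization they were Psmd6 (0.19), Psmg1 (0.22) and Psmc4 (0.14). With exonic length removed they were Psmb2 (-0.07), Psmb5 (-0.03), Psmc3 (0.14), Psmc4 (0.08), Psmd10 (-0.01), Psmd5 (0.07), Psme1 (0.23) and Psmf1 (0.03). With main transcript length removed they were Psma4 (-0.01), Psmb2 (-0.14), Psmb3 (-0.18), Psmb7 (-0.04), Psmc3 (0.06), Psmc4 (0.06) and Psmd5 (0.05). The cause was not tested. Leaving out a tumor took the call from 9 members, gave one to 2 and turned the direction of 0.

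Replicate numbers were not taken to pair the tumors in the main fit. Deviations of same-numbered tumors correlated at 0.03, 0.007 and 0.044. Colq tumors 1 and 3 correlated best with the Vector tumor of their own number, and Colq tumor 2 with Vector tumor 1 (0.021). All these values are near 0 and cannot settle whether the tumors were paired. With a replicate block 11 members were higher and 11 lower; in the core 8 were higher and 0 lower, and in the 19S particle 3 and 10, with a member median of 0.11.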
